A study of Mus musculus with 4 samples.

Results

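The 10 genes described here encode subunits of the Polycomb repressive complexes: Ezh2, Ezh1, Eed, Suz12, Jarid2 and Mtf2 of Polycomb repressive complex 2, and Rnf2, Ring1, Bmi1 and Cbx7 of Polycomb repressive complex 1. They were chosen by name, and their members on the array were all probe sets annotated to one of these genes alone, 33 of the 34945 single-gene probe sets, so that 10 of 18193 measured genes are covered. RNA was measured on 1 Affymetrix mouse array for each of 4 cell lines. The NT-ESC lines 1, 2 and 3 (NT-1, NT-2 and NT-3) are embryonic stem cell lines from cloned blastocysts, labelled as subclones that came from Adeno-1 through nuclear transfer. The iPSC clone (Adeno-1) is a single induced pluripotent stem cell clone. It was reprogrammed with adenoviral vectors, starting from fibroblasts of the tail tip, and supplied the donor nuclei. All 4 lines were grown with serum and LIF on irradiated fibroblast feeders, which were depleted by a short preplating step before RNA extraction, and no mutation or drug treatment is given for any of them. The labels do not say whether the 3 NT-ESC lines came from separate derivations, so they may not be independent replicates. With 1 array per line, the spread between them may also be partly technical.

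Polycomb repressive complex 2 places a repressive methyl mark on histone H3 through its enzyme Ezh2 or the paralog Ezh1, held together with Eed, which reads the mark, and Suz12, the scaffold. Jarid2 and Mtf2 are accessory subunits that help bring the complex to its target sites. Polycomb repressive complex 1 carries a ubiquitin ligase made of Rnf2 (also called Ring1B) or its paralog Ring1 with a partner such as Bmi1, and Cbx7 is a chromodomain subunit that reads the methyl mark. In embryonic stem cells these complexes are known for keeping developmental regulators silent at promoters rich in CpG dinucleotides, and loss of core subunits of Polycomb repressive complex 2 disturbs differentiation more than self-renewal.

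All 10 genes had at least 1 start site in the RefSeq promoter table of build GRCm38.p6, which holds 250 bases before and 50 bases after each start, and 12 member promoters were found in all because Jarid2 and Mtf2 had 2 each. Of these 12 promoters 10 (83.3%) held at least 20 CpG dinucleotides, against 26.5% of all 32851 promoters in the table, and this limit was chosen after the counts were seen. The members outside it were Eed with 17 and the second Mtf2 start with 2. Suz12 had the highest count, 41, reached by 3.46% of all promoters. Ezh2 had 31, Ezh1 23 and Bmi1 23, where the median of all promoters was 7. The promoters of the paralogous enzymes Ezh2 and Ezh1 are shown because the levels of these genes are set side by side across the lines. Those of Suz12 and Bmi1 are shown because these members had the largest ranges over the 4 arrays. All the promoters shown are written 5′ to 3′ on the strand of the gene with every CpG in capitals. In the order Ezh2, Ezh1, Suz12 and Bmi1 they come from chr6:47594981-47595280 (minus strand), chr11:101226414-101226713 (minus strand), chr11:79992856-79993155 (plus strand) and chr2:18676768-18677067 (plus strand).
Ezh2: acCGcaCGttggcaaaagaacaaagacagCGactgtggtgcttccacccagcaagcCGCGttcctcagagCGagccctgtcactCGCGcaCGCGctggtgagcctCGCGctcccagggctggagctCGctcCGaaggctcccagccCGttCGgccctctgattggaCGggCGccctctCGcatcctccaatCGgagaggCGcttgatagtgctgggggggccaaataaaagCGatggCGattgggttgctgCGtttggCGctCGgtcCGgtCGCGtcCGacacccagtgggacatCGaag
Ezh1: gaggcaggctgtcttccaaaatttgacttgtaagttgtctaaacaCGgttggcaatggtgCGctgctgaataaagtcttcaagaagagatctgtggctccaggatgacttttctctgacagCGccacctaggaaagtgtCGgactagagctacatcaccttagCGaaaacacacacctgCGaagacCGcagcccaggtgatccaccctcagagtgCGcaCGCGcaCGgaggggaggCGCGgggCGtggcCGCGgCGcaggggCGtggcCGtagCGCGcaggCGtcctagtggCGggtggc
Suz12: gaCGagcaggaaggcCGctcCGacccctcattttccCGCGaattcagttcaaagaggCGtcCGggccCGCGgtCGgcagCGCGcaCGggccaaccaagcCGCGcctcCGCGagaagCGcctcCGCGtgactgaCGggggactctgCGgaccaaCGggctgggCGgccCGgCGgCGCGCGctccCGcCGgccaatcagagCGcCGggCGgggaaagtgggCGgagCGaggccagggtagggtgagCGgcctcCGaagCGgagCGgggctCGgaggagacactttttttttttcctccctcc
Bmi1: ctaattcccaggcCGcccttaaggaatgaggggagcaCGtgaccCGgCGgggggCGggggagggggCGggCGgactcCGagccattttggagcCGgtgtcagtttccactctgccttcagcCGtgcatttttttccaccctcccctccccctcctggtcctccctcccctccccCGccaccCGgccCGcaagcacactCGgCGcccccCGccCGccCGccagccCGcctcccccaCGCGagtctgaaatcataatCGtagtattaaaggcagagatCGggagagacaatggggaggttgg

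Ezh2 and Eed are textbook targets of the E2F cell cycle factors, and the promoters were searched on both strands for a pair of E2F-type words, TTTGGCG and TTTCCCG, each of which contains a CpG. TTTGGCG was found in the Ezh2 promoter and in 1.56% of all promoters, and TTTCCCG in the Suz12 promoter and in 3.39% of all promoters. Neither word lay in the other 10 member promoters, that of Eed included, which says only that these letters are not in those windows.

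Levels are given on the log2 intensity scale with the mean of each array set to an assumed 7, since the deposited values are the log2 of a ratio of log intensities. Every log2 difference scales with that mean and is 14.3% smaller with a mean of 6. Pearson's r between arrays lay between 0.9951 and 0.9979 across genes, which are not independent replicates. All 10 fixed pluripotency markers, Pou5f1, Sox2 and Nanog among them, stood above the median level of all probe sets, 6.83, on every array. Of 9 measured fibroblast and feeder markers 6 did so, while Lum, Pdgfra and Pdgfrb lay under that median on all arrays. The summed linear level of the 9 was 4242, 5087 and 4339 in NT-ESC lines 1 to 3 and 4159 in the iPSC clone. This sum was highest in line 2 and lowest in the clone. The median of the list went the other way, with 7.38, 7.35 and 7.43 in the lines and 7.46 in the clone. The trophectoderm markers, 3 of 6 above the median level of all probe sets on every array, summed to 1189 to 1310 in the lines. Their sum in the clone, 1049, was the lowest. Eomes and Tfap2c were lowest in the clone, Cdx2 was highest there, and Elf5, Krt7 and Hand1 lay in between. The list median was lowest in line 2, at 7.03 beside 7.05 in the clone. The primitive endoderm markers, 5 of 6 dim on every array, summed to 591, 614 and 661 in lines 1 to 3 and to 605 in the clone, highest in line 3. Dab2, the 1 bright marker of that list, stood at 7.34, 7.48 and 7.68 in the lines and at 7.32 in the clone. The gap between the 3′ and 5′ control probe sets of Actb, a sign of RNA integrity, was 0.28, 0.42 and 0.29 in the lines and 0.22 in the clone. In bulk RNA fewer cells that hold a transcript and less of it per cell cannot be told apart.

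The differences between NT-ESC lines and clone were small for the Polycomb genes, and none of the 10 passed limma's test at an adjusted p threshold of 0.05 over all genes. Their mean differences ran from -0.02 for Mtf2 to 0.31 for Suz12. The median was 0.05, beside -0.0031 over all genes and 0.0147 over those that reached the median level, as all 10 did. The Benjamini-Hochberg adjusted p-values lay between 0.856 and 0.995 (limma). The share of all genes called was 0%, and 1 member, Suz12, had an unadjusted p under 0.05, as had 1006 of 18193 genes (5.53%). All 3 lines were higher than the clone for Ezh1 and Suz12, 2 of 10 genes beside 24.7% of all genes, and all 3 were lower for 0 of 10 beside 26.7%. Among genes that reached the median level these shares were 29.5% and 21.9%.

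**Figure D1:**
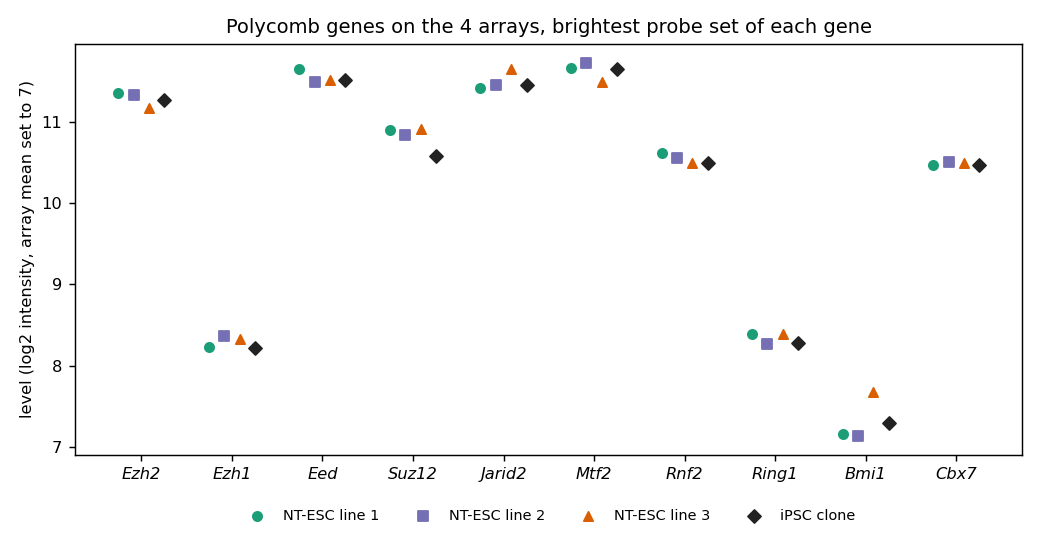
Level of each of the 10 Polycomb genes (log2 intensity, array mean set to 7) in NT-ESC lines 1, 2 and 3 and in the iPSC clone, 1 point per array, for the probe set with the highest mean of each gene. The points of a gene lie close together except for Suz12, where the clone at 10.58 is below the lines, and Bmi1, where line 3 at 7.68 is above the other arrays. Heights of different genes are not comparable, because probe sets differ in affinity.

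Ezh2, the main methyltransferase of dividing cells, was measured by 1 probe set and stood at 11.36, 11.33 and 11.17 in NT-ESC lines 1 to 3 and at 11.28 in the iPSC clone. The clone lay within the range of its lines. The mean difference was 0.01 ± 0.10 (SE), and its 95% interval ran from -0.25 to 0.26. Ezh1, the paralog that prevails in many non-dividing cells, stood at 8.23, 8.36 and 8.33 in the lines and at 8.22 in the clone by its brightest probe set. The lowest line was almost at the clone, and the difference was 0.09 ± 0.09 (SE). A second Ezh1 probe set went the other way, with 7.50, 7.40 and 7.42 in the lines and 7.54 in the clone, so no direction can be given for Ezh1. Its other 2 probe sets were dim.

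The levels of paralogs cannot be ranked against each other, since their probe sets bind with different strength, but the gap between a pair can be followed from array to array. The Ezh2 to Ezh1 gap was 3.12, 2.97 and 2.84 in lines 1 to 3 and 3.06 in the clone. The lines averaged 2.98 ± 0.14 (SD, n = 3), so the clone fell within their spread. For the ligase pair the Rnf2 to Ring1 gap was 2.22, 2.28 and 2.11 in the lines and 2.23 in the clone, again inside the range of the lines. Both gaps use the brightest probe set of each gene. The second Ezh1 and Rnf2 probe sets had the clone as the highest array. The place of the clone in each gap therefore depends on the probe set. With 3 lines and 1 clone an exact permutation test of a single value cannot go below p = 0.25, and none was run.

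Eed, the subunit that reads the methyl mark, stood at 11.65, 11.50 and 11.51 in the lines and at 11.51 in the clone. Line 1 was highest and the other lines were at the level of the clone, with a mean difference of 0.04 ± 0.09 (SE). Its second probe set was dim.

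Suz12, the scaffold subunit, showed the largest difference of the members. Its brightest probe set (1420021_s_at) stood at 10.90, 10.84 and 10.92 in the lines, against 10.58 in the clone. The lines averaged 10.89 ± 0.04 (SD, n = 3) and did not overlap with the clone; the difference was 0.31 ± 0.08 (SE), or 1.24-fold, with an unadjusted p of 0.00994 and a Benjamini-Hochberg adjusted p of 0.856 by limma. The 2 next brightest Suz12 probe sets also had the clone as the lowest array. Probe set 1427253_s_at stood at 10.82, 10.68 and 10.91 in the lines, against 10.65 in the clone, and 1452364_at at 10.31, 10.18 and 10.33, against 10.05. The 3 dimmer probe sets did not repeat this: 1420020_at stood at 8.48, 8.28 and 8.48 in the lines, against 8.59 in the clone, the reverse order. For the other 2 the clone lay between line 2 and the other lines. With the mean of all 6 probe sets in place of the brightest the Suz12 difference was 0.13 (limma, Benjamini-Hochberg adjusted p = 0.916). Probe sets of a gene read the same RNA and are not replicates. The clone was also the array with the smallest Actb gap and the lowest feeder marker sum, though with the highest median of the feeder list. The part of RNA integrity and feeders in the Suz12 difference was not tested.

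**Figure D2:**
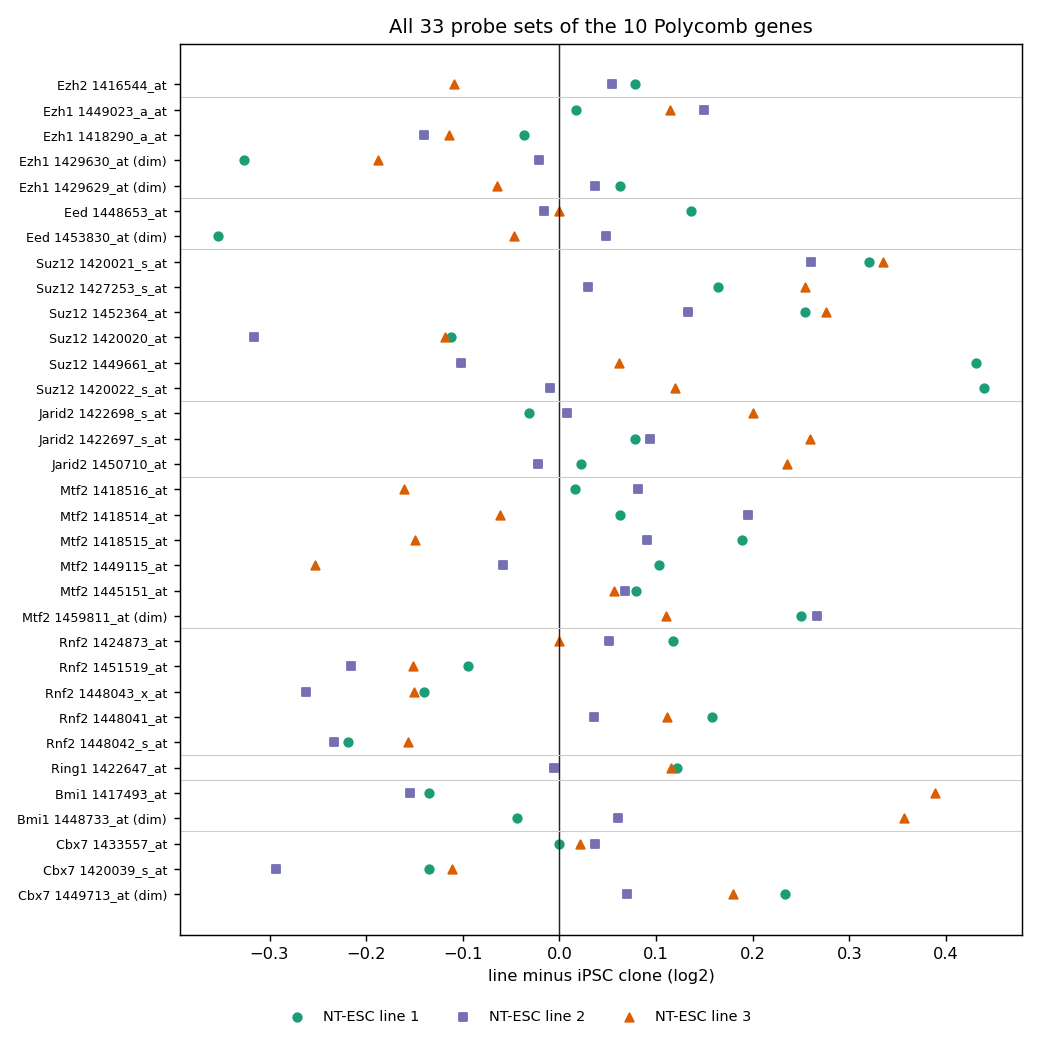
Difference between each NT-ESC line and the iPSC clone (log2, x axis) for all 33 probe sets of the 10 Polycomb genes (rows, grouped by gene, brightest first); dim marks probe sets under the median level on every array. The 3 brightest Suz12 probe sets lie right of 0 for all lines, the 3 Jarid2 probe sets have line 3 farthest right, and the 4 brightest Mtf2 probe sets have it farthest left.

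Over all 33 probe sets the mean of the lines was higher than the clone for 23 and lower for 10, beside 48.7% higher among all single-gene probe sets. Their differences ran from -0.20 for an Rnf2 probe set to 0.31 for the brightest of Suz12. Among the 27 probe sets that reached the median level the clone was the lowest array for 7 and the highest for 6, beside 29% and 22% of 20487 such probe sets. The shares for the lowest and the highest array are near the background. The 23 of 33 lies above the 48.7%, but several of these probe sets read the same gene, and this difference was not tested. The 48.7% also includes more dim probe sets, since 20487 of 34945 reached the median level, beside 27 of these 33.

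Of the accessory subunits, Jarid2 stood at 11.42, 11.46 and 11.65 in the lines and at 11.45 in the clone. Mtf2, a Polycomb-like protein that binds unmethylated CpG-rich DNA, stood at 11.67, 11.73 and 11.49 in the lines and at 11.65 in the clone. For both genes the clone lay inside the range of the lines and line 3 was the array farthest from the others.

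In Polycomb repressive complex 1, Rnf2, the main ligase in embryonic stem cells, stood at 10.62, 10.55 and 10.50 in the lines and at 10.50 in the clone, with a difference of 0.06 ± 0.08 (SE). Its probe sets disagreed in direction: the second, nearly as bright, stood at 10.40, 10.28 and 10.34 in the lines and at 10.49 in the clone. Ring1 stood at 8.39, 8.27 and 8.39 in the lines and at 8.27 in the clone, a difference of 0.08 ± 0.09. Cbx7, the main chromodomain subunit of the complex in embryonic stem cells, had the most even brightest probe set of the members, at 10.47, 10.51 and 10.49 in the lines and at 10.47 in the clone. Its range over the 4 arrays was 0.04, beside a median range of 0.17 over the members and 0.18 over all genes. Its second probe set was less even, with 8.81, 8.65 and 8.84 in the lines and 8.95 in the clone, a range of 0.29, and the third, a dim one, had a range of 0.23. Bmi1, a RING finger partner of the ligase known for repressing Cdkn2a, stood at 7.15, 7.13 and 7.68 in the lines and at 7.29 in the clone. Its mean difference from the clone, 0.03 ± 0.23 (SE), averages a line that was higher with 2 that were lower, and without line 3 it was -0.15.

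**Figure D3:**
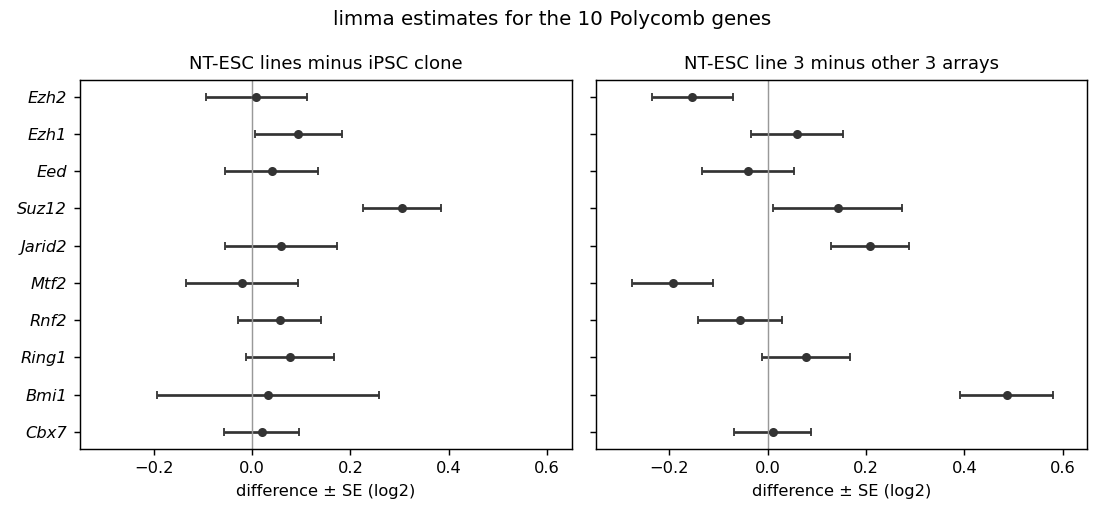
limma estimates with standard errors (log2) for the 10 Polycomb genes: left, the mean of the 3 NT-ESC lines minus the iPSC clone; right, NT-ESC line 3 minus the mean of the other 3 arrays. Suz12 at 0.31 stands out on the left and Bmi1 at 0.49 on the right, and neither passed the test over all genes.

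When each NT-ESC line was set against the other 3 arrays by limma, 0 of the 10 genes were called for any line. For line 3, 0.159% of all genes were called higher and 0.302% lower, and for lines 1 and 2 the shares were 0%. The 84 calls for line 3 came to 0 when any 1 of the other arrays was left out, where the fit has fewer samples. At an unadjusted p under 0.05 there were 2 members for line 3, Bmi1 and Jarid2, beside 11.6% of all genes, and 0 for lines 1 and 2, beside 2.77% and 2.33%. Bmi1 was the member with the largest range over the 4 arrays, 0.54 or 1.46-fold. Its level in line 3, 7.68, was above the mean of the other arrays, 7.19, by 0.49 ± 0.09 (SE), which is 1.40-fold (limma, unadjusted p = 0.00125, Benjamini-Hochberg adjusted p = 0.0906). Its second probe set, which was dim, also had line 3 as the highest array, with 5.77, 5.87 and 6.17 in lines 1 to 3 and 5.81 in the clone. The primitive endoderm marker sum was highest in line 3, as given above, but the median of that list was 6.56 there and 6.57 in the clone. Gata4, Gata6 and Dab2 were highest in line 3, Foxa2 was lowest there, and Sox17 and Sox7 were highest in other arrays. The feeder sum was highest in line 2. The part of other cell types in the line 3 differences was not tested.

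Jarid2 in line 3 exceeded the mean of the other arrays by 0.21 ± 0.08 (SE; limma, unadjusted p = 0.0336, Benjamini-Hochberg adjusted p = 0.370), and line 3 was the highest array for all 3 of its probe sets. Mtf2 differed by -0.19 ± 0.08 in line 3 (limma, Benjamini-Hochberg adjusted p = 0.438), and line 3 was the lowest for 4 of its 5 probe sets that reached the median level. Ezh2 differed by -0.15 ± 0.08 in line 3 (limma, Benjamini-Hochberg adjusted p = 0.573) and was also lowest there. Over all probe sets that reached the median level, line 3 was the highest array for 27.2% and the lowest for 28.6%. None of the 10 genes lies on chromosome 8, whose 932 measured genes had a median difference of 0.18 in line 3. Rnf2 lies on chromosome 1 and was not highest in line 3.

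Pairs of a line and the clone were at least 1.2-fold apart for 1 member in line 1 (Suz12), 0 in line 2 and 2 in line 3 (Suz12 and Bmi1). Among all 12144 genes that reached the median level the shares were 7.94%, 7.39% and 14.1%. Over the 4 arrays, 2 of 10 members had a range of at least 1.2-fold, beside 28.1% of these genes.

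The genes whose profile over the 4 arrays was closest to that of Bmi1, among 11746 genes whose mean over the arrays reached the median level, were Ash2l, Dctd and Fbxo8, with root mean square distances of 0.018, 0.019 and 0.025 log2 between profiles centred on their means. All 3 lie on chromosome 8, while Bmi1 lies on chromosome 2. Of the 18193 measured genes 932 lie on chromosome 8, and these 932 had a median difference of 0.18 in line 3. The search was for a profile highest in line 3, and a link between Bmi1 and chromosome 8 was not tested. Ash2l, for example, stood at 11.47, 11.49 and 12.01 in lines 1 to 3 and at 11.60 in the clone.

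The other genes of the Polycomb complexes and their cofactors were represented by 32 measured genes. None of the 32 passed limma's test between lines and clone, 4 had an unadjusted p under 0.05, beside 5.53% of all genes, and their median difference was -0.01. All 3 lines were higher than the clone for 11 of them and lower for 9, beside 24.7% and 26.7% of all genes. Among the 31 that reached the median level the counts were 11 and 8, beside 29.5% and 21.9% of all genes that did. Mga, a subunit of the variant complex that contains Pcgf6, stood at 9.61, 9.46 and 9.44 in the lines, against 9.20 in the clone, a difference of 0.30 ± 0.10 (SE). Kdm6b, a demethylase that removes the Polycomb methyl mark, stood at 8.95, 8.93 and 9.07, against 8.71. Phc2, a polyhomeotic subunit, stood at 8.76, 8.67 and 8.61, against 8.44. The lines did not overlap with the clone for these 3 genes, and each had a Benjamini-Hochberg adjusted p of 0.856 (limma).

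On the lower side, Epop, an Elongin-binding partner of Polycomb repressive complex 2, stood at 10.36, 10.21 and 9.95 in the lines, against 10.52 in the clone, a difference of -0.35 ± 0.16 (SE). Pcgf2, the closest paralog of Bmi1, stood at 8.43, 8.45 and 8.48, against 8.69. Bcor, a corepressor of a variant complex, stood at 8.24, 8.19 and 7.94, against 8.36. The clone was the highest array for all 3, and none passed the test (limma, Benjamini-Hochberg adjusted p = 0.856, 0.856 and 0.860). The Pcgf2 to Bmi1 gap was 1.28, 1.31 and 0.80 in lines 1 to 3 and 1.40 in the clone. It was smallest in line 3 and largest in the clone, with a mean of 1.13 ± 0.29 (SD, n = 3) in the lines. For line 3 against the other arrays 0 of the 32 genes were called and 5 had an unadjusted p under 0.05, beside 11.6% of all genes; line 3 was the lowest array for 12 and the highest for 6, beside 28.8% and 25.7% of all genes.

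**Figure D4:**
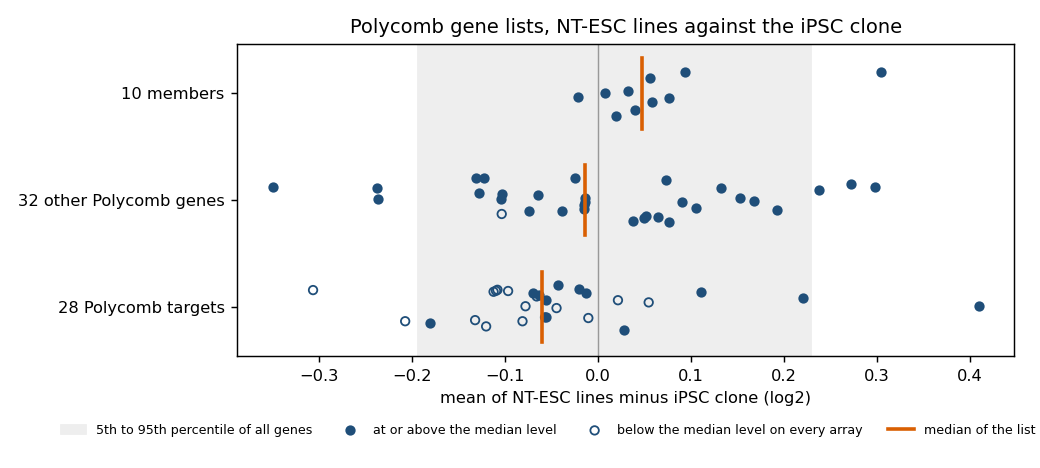
Mean of the NT-ESC lines minus the iPSC clone (log2, x axis) for the 10 members, 32 other Polycomb genes and 28 Polycomb target genes; open circles are genes under the median level on every array, orange bars are list medians, and the grey band spans the 5th to the 95th percentile of all genes (-0.19 to 0.23). Suz12 at 0.31 is the 1 member outside the band.

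The developmental regulators that Polycomb holds silent in embryonic stem cells were represented by 28 measured genes. On all 4 arrays 16 of them lay under the median level, beside 6049 of 18193 genes. The endoderm factors Gata4, Gata6 and Sox17 and the trophectoderm factor Cdx2 were among the 16. The other 12, Olig1 and Olig2 among them, reached that level on at least 1 array. None of the 28 passed limma's test, 1 had an unadjusted p under 0.05, beside 5.53% of all genes, and the median difference was -0.06. The lines were all lower than the clone for 14 of 28, beside 26.7% of all genes, and 11 of those 14 were among the 16 dim genes, where the share over all dim genes was 36.4%. The median difference of the 16 dim targets was -0.0887, beside -0.0363 over all dim genes. Of the 12 brighter targets 3 were lower in all lines and 2 higher, beside 21.9% and 29.5% of all genes that reached the median level. Eomes, a regulator of trophectoderm and mesendoderm, stood at 7.99, 7.83 and 8.38 in the lines, against 7.65 in the clone. Olig1, a neural factor, stood at 9.68, 9.54 and 9.42, against 9.33. The lines lay above the clone for both genes, but neither difference passed the test (limma, Benjamini-Hochberg adjusted p = 0.856 for each).

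Pax6 and Olig2, neural regulators, and Pax3, a neural crest and muscle regulator, had the lowest differences among the brighter targets, -0.18, -0.07 and -0.06. Pax6 stood at 7.30, 7.50 and 6.80 in the lines and at 7.38 in the clone, so that line 3 alone was low. The Pax6 level in line 3, just under the median level, differed from the mean of the other arrays by -0.59 ± 0.10 (SE). This was larger in size than the 0.49 of Bmi1. Cdkn2a, the cell cycle inhibitor locus that Bmi1 represses in other cell types, stood at 6.57, 6.47 and 7.05 in lines 1 to 3 and at 6.59 in the clone. Line 3 was the highest array and the 1 array above the median level; the other 3 were dim, so the size of the difference is not given. For line 3 against the other arrays 0 of the 28 targets were called, and 5 had an unadjusted p under 0.05, beside 11.6% of all genes. With 4 arrays no relation between a Polycomb gene and its targets was tested.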

How the data were processed

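The deposited table holds 4 columns of log2 values, 1 per array, made by the authors; their software and genome build are not given in the sources used here, and biotin-labelled RNA was prepared by in vitro transcription, per the labels' protocols. On each array 2 raised to the value averages 1, which is the form taken by log2(log intensity divided by its array mean). Each ratio was multiplied back with an assumed mean log2 intensity of 7; the design had foreseen this. Of 45101 probe sets, 34945 had a single gene in the platform annotation, with symbols updated by gene ID to the RefSeq table of GRCm38.p6 (34741 matched). Each gene was taken from its brightest probe set on average.

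Lines and clone were compared with limma 3.58.1 in R 4.3.3 (lmFit, eBayes, two-sided, Benjamini-Hochberg over 18193 genes), with 2 residual and 3.57 prior degrees of freedom; the lone array was assumed to vary like the other 3. Each line was fitted against the other 3 arrays in the same way. The fit was tested on simulated data (3 arrays and 1 array, 18193 genes, 200 of them shifted): 3.2% of changes of 0.5 log2, 78.8% of 1 and 98% of 2 were called, with 4 false calls per run. Precision is limited by the number of arrays. The members and lists were chosen with earlier results of these data known. All members are named; of the other lists, the 3 genes in each direction with the largest difference among those reaching the median level; and the 3 genes closest in profile to the member of largest range. Genes named beyond this, such as Gata4 and Cdx2, are examples chosen after their values were seen. Alternatives covered the assumed mean, the deposited scale, quantile normalization, probe set choice, dim genes, an intensity trend and each array left out.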

Additional observations from a re-analysis of the deposited data

How the results depend on the processing

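No member was called between lines and clone, or for any line against the other 3 arrays, under any of the alternatives run, and 0 genes were called between lines and clone under each. Of 110 recomputed line minus clone differences of members, 98 kept their sign. All 12 reversals came with quantile normalization, the mean of probe sets or 1 line left out. Changing the assumed mean, adding an intensity trend, or fitting every probe set or only genes that reached the median level cannot change a sign. The sign counts, that for line 3 included, therefore say nothing of stability under those settings. With quantile normalization Ezh2 had -0.0261 and Cbx7 -0.0224. With the mean of a gene's probe sets Ezh1 had -0.0425, Eed -0.0387, Mtf2 0.0492 and Rnf2 -0.0767. When 1 line was left out in turn, the difference ran from -0.0270 (without line 1) to 0.0666 for Ezh2, which was -0.0152 without line 2, from -0.00798 (without line 1) to 0.0682 for Eed, from -0.0119 (without line 3) to 0.104 for Jarid2, from -0.0721 to 0.0486 (without line 3) for Mtf2 and from -0.145 (without line 3) to 0.127 for Bmi1. Suz12 and Ring1 kept their sign under every alternative, Suz12 with 0.29 to 0.33 over the settings that leave out 1 line, and Ring1 with 0.0549 to 0.118 (without line 2). Over the same settings Rnf2 ran from 0.0255 (without line 1) to 0.0841 (without line 3), Cbx7 from 0.0109 (without line 2) to 0.0291 (without line 1) and Ezh1 from 0.0659 to 0.132. For line 3 against the other arrays, 107 of 110 values kept their sign; with the mean of probe sets Ezh1 had -0.0417 and Eed 0.00717, and with 1 array left out, alternatives added after the data were seen, Eed ran from -0.0682 to 0.00798 (without line 1). Bmi1 had 0.46 to 0.53 with 1 of the other arrays left out, with adjusted p-values of 0.348 to 0.597 (limma), since those fits have fewer samples, and adjusted p-values of 0.0628 to 0.258 under the other settings. The genes called for line 3 numbered 84, and 15 on the deposited scale, 127 with quantile normalization, 168 with the mean of probe sets, 55 with every probe set as a feature, 153 with an intensity trend and 0 with any other array left out. The median difference of the other Polycomb genes, -0.01, ran from -0.019 to 0.028 when 1 line was left out. That of the targets, -0.06, was -0.0123 on the deposited scale, whose units are smaller, and -0.0314 over the genes that reached the median level, and ran from -0.07 to -0.063 when 1 line was left out. The cause of the other shifts was not tested. No paired analysis was possible because there was 1 clone array for all 3 lines. Probe sets under the median level limit what can be said of dim targets.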
